A study of Mus musculus with 10 samples.

Results

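*Six2*, *Six4*, *Eya1*, *Eya2*, *Eya4*, *Dach1*, *Sall1*, *Sall3* and *Sall4* are developmental regulators of the Six-, Eya-, Dach- and Sall-type families, and they are described here in the outer ear of the mouse embryo. They were taken by name: all 9 symbols were matched to one Ensembl gene identifier each among the 53465 genes of the deposited count table. Bulk RNA-seq had been made from the micro-dissected forming pinna, the external ear flap, at E14.5, with 5 WT and 5 *mEC1*dup/dup embryos as replicates. *mEC1*dup/dup mice were made by CRISPR/Cas9 knock-in on a C57BL/6J background and carry an extra copy of mEC1, an enhancer of the homeobox gene *Hmx1*, on both alleles. No other allele or agent was given for either genotype, and the change is germline, so it was present in every cell of the dissected tissue. Total counts ranged from 17461544 to 18462073 per library.

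Six-family proteins are homeodomain transcription factors that bind DNA, and Eya proteins are coactivators with phosphatase activity that their Six-family partners carry into the nucleus. Dach proteins are Ski-related cofactors that can turn Six-Eya target genes down, and Sall proteins are zinc-finger transcription factors that mostly act as repressors. The families work together in placodes, branchial arches, kidney and limb, and inherited changes in several members cause syndromes with malformed ears, among them branchio-oto-renal syndrome (*EYA1*) and Townes-Brocks syndrome (*SALL1*).

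The DNA just upstream of *Six2*, *Eya1* and *Eya4* is shown because these genes of the set were called in any of the fits described below. That choice rests on these same data. Each run holds the 250 bases before the outermost annotated start in GRCm39, 5′ to 3′ on the minus strand that carries the gene. Capitals mark 3 short motifs found by a search of both strands. The first was the GC box, GGGCGG on either strand, which binds Sp-type factors. The second was CCAAT on either strand, which binds nuclear factor Y. The last was the TATA-type stretch TATAAA on either strand. The windows are chr17:85996021-85996270 for *Six2*, chr1:14380544-14380793 for *Eya1* and chr10:23226818-23227067 for *Eya4*.
Six2: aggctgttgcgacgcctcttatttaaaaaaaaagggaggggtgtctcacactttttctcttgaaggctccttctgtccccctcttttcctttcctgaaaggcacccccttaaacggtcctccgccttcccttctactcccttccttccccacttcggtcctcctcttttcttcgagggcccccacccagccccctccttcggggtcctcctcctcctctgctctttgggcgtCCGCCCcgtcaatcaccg
Eya1: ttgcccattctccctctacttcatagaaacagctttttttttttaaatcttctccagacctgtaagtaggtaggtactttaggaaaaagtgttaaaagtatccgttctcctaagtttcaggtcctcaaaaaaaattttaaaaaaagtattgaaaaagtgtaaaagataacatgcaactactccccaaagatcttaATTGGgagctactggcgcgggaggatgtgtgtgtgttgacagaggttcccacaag
Eya4: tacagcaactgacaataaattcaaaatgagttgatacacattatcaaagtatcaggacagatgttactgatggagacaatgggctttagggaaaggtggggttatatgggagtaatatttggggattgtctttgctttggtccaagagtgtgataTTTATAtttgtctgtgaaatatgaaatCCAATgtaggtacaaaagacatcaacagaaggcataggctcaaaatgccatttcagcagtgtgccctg
The GC content was 57.2% for *Six2*, 37.6% for *Eya1* and 38% for *Eya4*. Among all 9 genes, a CCAAT box was found in 5 windows (*Six4*, *Eya1*, *Eya4*, *Sall1* and *Sall4*), a GC box in 4 (*Six2*, *Six4*, *Eya2* and *Sall3*) and the TATA-type stretch in 2 (*Eya4* and *Sall4*). Of 21495 genes with such a window, 36.2% held a CCAAT box, 30% a GC box and 12.5% the TATA-type stretch. The core CAAGTG bound by HMX proteins was in none of the 9 windows and in 13.3% of all windows, and TCAGGTT, the core of the MEF3-type site bound by Six-family proteins, was in none of the 9 and in 3.75% of all. Both strands were searched, and a match or its lack is a description of these letters in these windows only.

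The genes differed widely in level in the dissected WT pinna tissue. That tissue also held inner ear epithelium markers (213 to 272 CPM summed in WT), and the share of each level from outer ear cells was not tested. Levels are given as CPM, the reads of a gene scaled to a common library size after TMM normalization, and between genes as CPM per kilobase of merged exon. *Six2*, which keeps nephron and craniofacial progenitors undifferentiated, stood first with 61.2 ± 6.06 CPM per kb (SD, n = 5). The Eya coactivators and *Dach1* followed, with *Eya1* at 6.64 ± 0.174, *Eya2* at 5.99 ± 0.723, *Dach1* at 4.32 ± 0.318 and *Eya4* at 3.3 ± 0.165 CPM per kb. *Six4*, which acts in muscle and placodes, had 2.34 ± 0.245 CPM per kb, and the Sall genes came last, with *Sall1* at 1.32 ± 0.423, *Sall3* at 0.598 ± 0.402 and *Sall4* at 0.0834 ± 0.0552. Neighbours in this order did not overlap between the WT embryos except *Eya1* with *Eya2*, *Sall1* with *Sall3* and *Sall3* with *Sall4*. Without the division by length, *Eya4* passed *Dach1* and *Eya2*, and *Dach1* and *Six4* also passed *Eya2*. In other genes of the families, WT levels were 25.5 CPM per kb for *Six5*, 18.9 for *Sall2*, 10 for *Eya3* and 0.406 for *Dach2*, while *Six3* and *Six6* did not pass the filter on low counts.

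**Figure D1:**
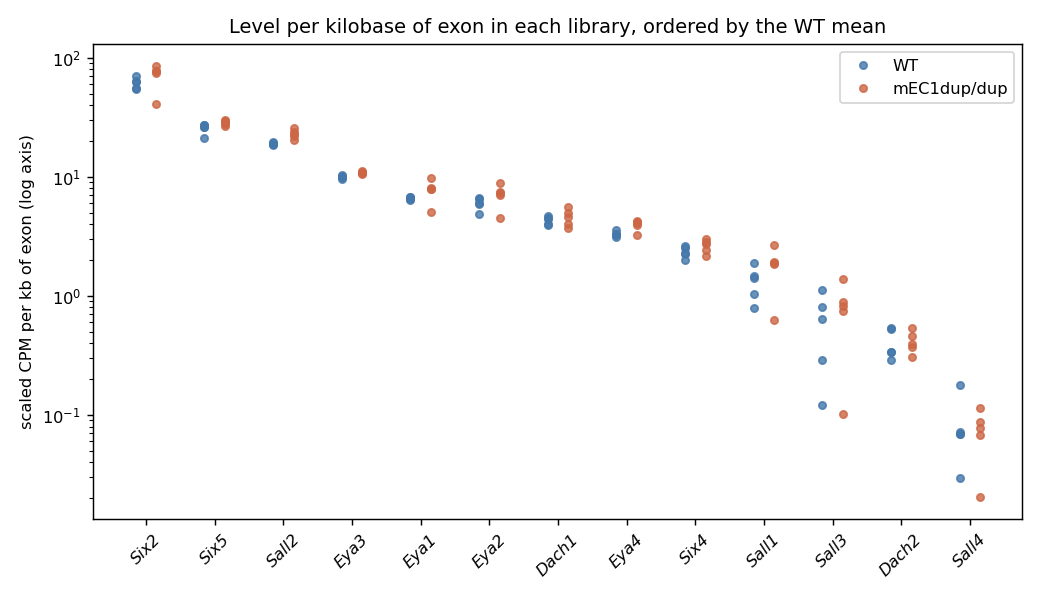
Level of each gene per kilobase of exon (TMM-scaled CPM per kb, log axis) in the 5 WT (blue) and 5 *mEC1*dup/dup (orange) embryos, 1 point per library, ordered by the WT mean. *Six2* at 61.2 CPM per kb in WT lies well above every other gene, and *Sall3* and *Sall4* have the widest spread between embryos of one genotype.

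To learn whether an extra mEC1 altered these genes, the 5 *mEC1*dup/dup libraries were compared with the 5 WT libraries. With all 10 libraries none of the 8 tested genes passed the threshold, but all 8 had a positive log2 fold change, from 0.08 (*Dach1*) to 0.44 (*Sall1*), with a median of 0.23. Over all 16426 genes tested the median was -0.0042, and 48.8% were positive. *mEC1*dup/dup replicate 1 stood apart from its group in these genes: it was the lowest of the 10 libraries in 6 of the 8 (11.1% of all genes tested), and in the fit without it *Six2*, *Eya1* and *Eya4* were called higher, at 0.32 to 0.36 on the log2 scale. That fit leaves out the library that ran against the others in these genes, so its values describe the weight of 1 embryo and are not a test of the genotype, and none of the other 9 fits with 1 library left out called any of the 8. A gene was called when edgeR's quasi-likelihood test gave a p of 0.05 or less after Benjamini-Hochberg adjustment and its mean log2 CPM was 1 or more, a rule that called 2.65% of all genes tested, 0.834% higher and 1.81% lower. At an unadjusted p under 0.05, 1 of the 8 was higher (*Eya4*; 7.1% of all genes tested) and 0 were lower (9.08%). DESeq2's Wald test and limma-voom with sample quality weights each called *Eya4* alone higher (1.95% and 1.88% of all genes tested were called higher), and limma-voom without weights called 0. At an adjusted p of 0.1 or less *Eya4* was again the one gene called (1.97% of all genes). *Sall4* did not pass the filter on low counts and has no test.

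**Figure D2:**
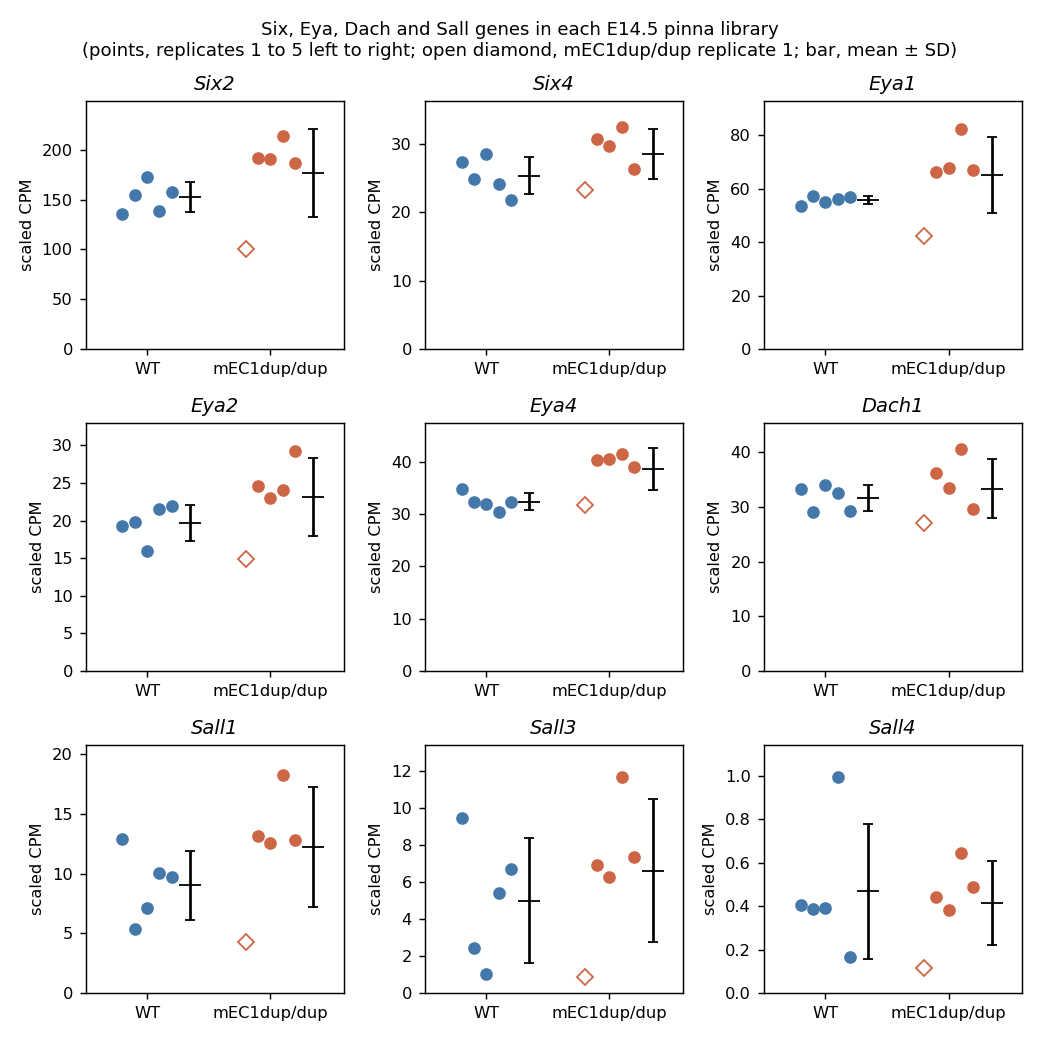
TMM-scaled CPM of the 9 genes in every library, replicates 1 to 5 from left to right in each genotype, with the mean and SD beside them and *mEC1*dup/dup replicate 1 as an open diamond. The diamond is the lowest point in 7 of the 9 panels, and in *Six2*, *Eya1*, *Eya2* and *Eya4* the other 4 *mEC1*dup/dup embryos lie above all 5 WT embryos.

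Of the Six-family genes, *Six2* (chromosome 17, 85991665 to 85996020, minus strand, GRCm39) had 136, 155, 173, 139 and 158 CPM in WT replicates 1 to 5. The *mEC1*dup/dup replicates had 101, 192, 191, 213 and 187 CPM. Replicates 2 to 5 were all above the highest WT embryo, and replicate 1 was below the lowest, so the groups overlapped from both sides. Mean levels were 152 ± 15.1 CPM in WT and 177 ± 43.7 CPM in *mEC1*dup/dup (SD, n = 5 in both), and the fitted log2 fold change was 0.22 (SE 0.15, edgeR adjusted p = 0.539). Without *mEC1*dup/dup replicate 1, the mean of the other 4 was 196 ± 12.03 CPM, and the log2 fold change was 0.36 (SE 0.068, edgeR adjusted p = 0.0181). That library was singled out on these same genes, so this fit is a description and not a test of the genotype.

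*Six4* (chromosome 12, 73146383 to 73160230, minus strand) was lower, with 27.3, 24.9, 28.6, 24.2 and 21.8 CPM in WT. The *mEC1*dup/dup embryos had 23.3, 30.8, 29.7, 32.5 and 26.3 CPM, of which replicates 2, 3 and 4 lay above the WT range. Here WT replicate 5, not *mEC1*dup/dup replicate 1, was the lowest library. The log2 fold change was 0.17 (SE 0.095, edgeR adjusted p = 0.422) and, without *mEC1*dup/dup replicate 1, 0.23 (SE 0.086, adjusted p = 0.189). *Mnat1*, which overlaps *Six4* on the other strand with no shared exonic base, had a log2 fold change of 0.075 (edgeR adjusted p = 0.562).

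Among the Eya coactivators, *Eya1* (chromosome 1, 14239167 to 14380543, minus strand) was the steadiest gene of the set in WT, with 53.6, 57.1, 54.8, 56.1 and 56.9 CPM. The *mEC1*dup/dup embryos had 42.5, 66.1, 67.7, 82.4 and 66.8 CPM. The coefficient of variation was 2.62% in WT and 22% in *mEC1*dup/dup, against medians of 9.15% and 8.48% over all genes tested. Replicate 1 lay below all WT embryos and replicates 2 to 5 lay above them. *Eya1* thus went from 55.7 ± 1.46 to 65.1 ± 14.3 CPM, a log2 fold change of 0.23 (SE 0.12, edgeR adjusted p = 0.412). With replicate 1 left out the *mEC1*dup/dup mean was 70.7 ± 7.78 CPM (n = 4) and the log2 fold change was 0.35 (SE 0.064, edgeR adjusted p = 0.0177). As for *Six2*, this fit is a description and not a test of the genotype.

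*Eya4* (chromosome 10, 22978861 to 23226817, minus strand), the Eya gene whose human counterpart is mutated in a late-onset deafness, came closest to the threshold with all libraries in. It had 34.8, 32.3, 31.9, 30.4 and 32.3 CPM in WT and 31.7, 40.2, 40.6, 41.4 and 38.9 CPM in *mEC1*dup/dup. Only replicate 1 of *mEC1*dup/dup fell inside the WT range, and the other 4 lay above it. The means were 32.3 ± 1.61 and 38.6 ± 3.96 CPM, and the log2 fold change was 0.25 (SE 0.072, edgeR adjusted p = 0.0811). DESeq2's Wald test gave an adjusted p of 0.029 and limma-voom with quality weights 0.034. Without replicate 1, *Eya4* averaged 40.3 ± 1.06 CPM in *mEC1*dup/dup and the fitted difference was 0.32 on the log2 scale (SE 0.052, edgeR adjusted p = 0.0102). Here too the fit without replicate 1 is a description and not a test of the genotype.

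*Eya2* (chromosome 2, 165436895 to 165613647, plus strand) had 19.2, 19.8, 15.9, 21.5 and 21.9 CPM in WT and 14.9, 24.6, 23.0, 24.1 and 29.3 CPM in *mEC1*dup/dup. It showed the same arrangement, with replicate 1 lowest of all and replicates 2 to 5 above every WT embryo. It was the gene of the set in which replicate 5 and not replicate 4 was the highest *mEC1*dup/dup embryo. The log2 fold change was 0.24 (SE 0.14, edgeR adjusted p = 0.473), and 0.36 (SE 0.1, adjusted p = 0.081) without replicate 1, so *Eya2* was not called in either fit.

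The corepressor *Dach1* (chromosome 14, 98024289 to 98407201, minus strand) had the smallest difference. WT embryos had 33.3, 29.1, 34.0, 32.5 and 29.2 CPM and *mEC1*dup/dup embryos 27.0, 36.1, 33.4, 40.6 and 29.6 CPM. The groups ran through each other, and the log2 fold change was 0.08 (SE 0.098, edgeR adjusted p = 0.762). It was 0.14 (SE 0.088, adjusted p = 0.463) without *mEC1*dup/dup replicate 1 and -0.0027 without replicate 4. Its sign thus rested on 1 library, and it was -0.012 with *Xist* as a covariate.

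*Sall1* and *Sall3* had the largest log2 fold changes of the 8 with all libraries and no covariate, and the widest spread of the 8. *Sall1* (chromosome 8, 89753863 to 89770823, minus strand) had 12.9, 5.37, 7.13, 10.03 and 9.69 CPM in WT and 4.29, 13.2, 12.6, 18.2 and 12.8 CPM in *mEC1*dup/dup. *mEC1*dup/dup replicates 2 and 4 were above the highest WT embryo and replicate 1 was below the lowest. The log2 fold change was 0.44 (SE 0.3, edgeR adjusted p = 0.531). Without replicate 1 it was 0.66 (SE 0.21, adjusted p = 0.132). Antisense transcripts overlap 9.95% of the exonic bases of *Sall1*, and neither library kit named for the study marks strand, so reads of both strands cannot be told apart there.

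*Sall3* (chromosome 18, 81009591 to 81030631, minus strand) varied most among the tested genes of the set, with 163, 44, 18, 97 and 121 reads in WT and 15, 125, 115, 216 and 136 reads in *mEC1*dup/dup. In CPM this was 9.42, 2.44, 1.01, 5.37 and 6.70 against 0.857, 6.89, 6.25, 11.6 and 7.36, a 13.6-fold range over the 10 libraries. The low embryos were WT replicates 2 and 3 as well as *mEC1*dup/dup replicate 1, so the spread was present in both genotypes. The log2 fold change was 0.41 (SE 0.56, edgeR adjusted p = 0.782). It was 0.1 without *mEC1*dup/dup replicate 4, 0.15 without WT replicate 3 and 0.24 without WT replicate 2, and 0.69 without *mEC1*dup/dup replicate 1 and 0.77 without WT replicate 1. *Sall4* (chromosome 2, 168590252 to 168609863, minus strand), a gene of early embryos and germ cells, was near the limit of detection, with 7, 7, 7, 18 and 3 reads in WT and 2, 8, 7, 12 and 9 in *mEC1*dup/dup. Its means were 0.470 ± 0.311 and 0.414 ± 0.195 CPM, and WT replicate 4 was the highest library. A difference in *Sall4* was not tested, as the gene did not pass the filter on low counts.

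*mEC1*dup/dup replicate 1 held 0.515 of the mean of the other *mEC1*dup/dup embryos for *Six2*, 0.6 for *Eya1*, 0.591 for *Eya2*, 0.302 for *Sall1* and 0.107 for *Sall3*. The steps were smaller for *Six4* (0.782), *Eya4* (0.786) and *Dach1* (0.774). At the other end, *mEC1*dup/dup replicate 4 was the highest library for *Six2*, *Six4*, *Eya1*, *Eya4*, *Dach1*, *Sall1* and *Sall3*. Replicates 2 to 5 were above all WT embryos in 4 of the 8 tested genes (3.44% of all genes tested). Replicate 1 was singled out on these same genes, so the shares over all genes given beside this count and the next ones are a description. With replicate 1 left out, 3 of the 8 were called higher (0.807% of all genes tested) and 0 lower (2.06%). All 8 were positive (48.5% of all genes), 6 had an unadjusted p under 0.05 (6.92% of all genes, higher), and their median log2 fold change was 0.35. Leaving out other libraries moved the difference in both directions. It rose to 0.27 for *Six2* without WT replicate 3, to 0.28 for *Eya2* without WT replicate 5 and to 0.6 for *Sall1* without WT replicate 1. Without *mEC1*dup/dup replicate 4 the log2 fold change was 0.14 for *Six2*, 0.13 for *Eya1* and 0.25 for *Sall1*, and without replicate 5 it was 0.14 for *Eya2*. The sign of the log2 fold change was positive for all 8 genes with DESeq2 size factors, upper quartile factors or total counts as the scaling.

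**Figure D3:**
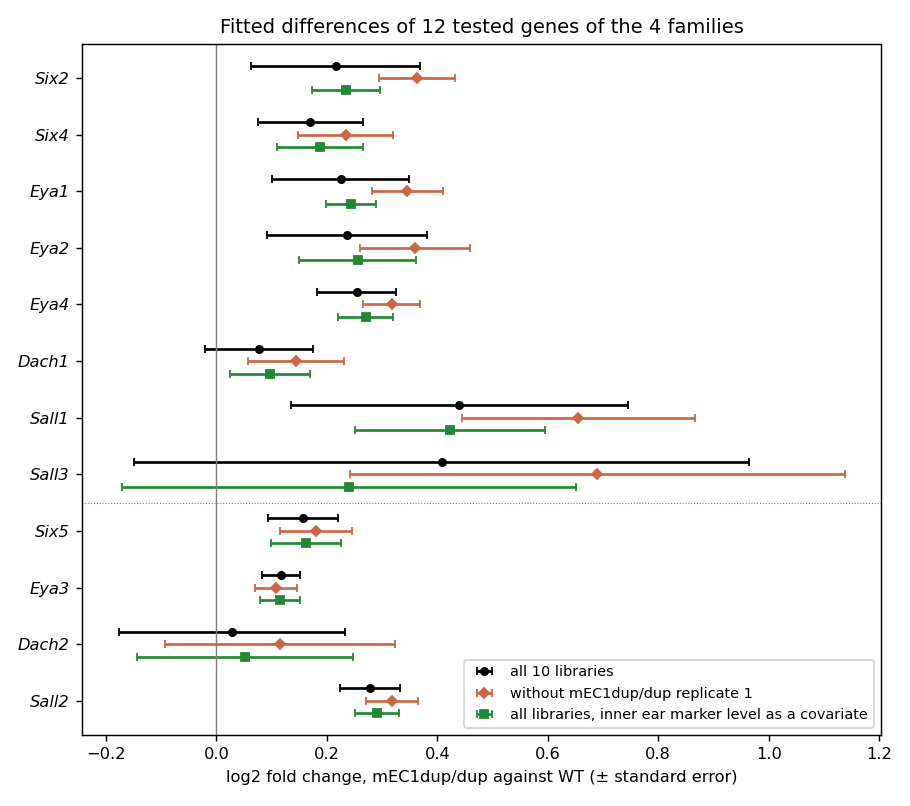
Fitted log2 fold change of *mEC1*dup/dup against WT with its standard error for 12 tested genes of the 4 families, from all 10 libraries (black circles), without *mEC1*dup/dup replicate 1 (orange diamonds) and with the summed level of inner ear markers as a covariate (green squares). Above the dotted line *Six2*, *Eya1* and *Eya4* move from 0.22, 0.23 and 0.25 to 0.36, 0.35 and 0.32 when replicate 1 is left out, with shorter error bars, and *Sall2* is among the genes below the line.

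The libraries also differed in tissue markers, sex-linked RNA and blood. Fibroblast, muscle, epithelium, cartilage, endothelium, melanoblast, neuron and glia markers were all detected, while 4 kidney markers summed to at most 0.554 CPM and *Umod* was at 0. Muscle markers were called lower in *mEC1*dup/dup for 3 of 8 genes (1717 to 2663 CPM summed in WT, 1174 to 1793 in *mEC1*dup/dup), epithelium markers for 3 of 7 (841 to 1482 against 671 to 880 CPM) and fibroblast markers for 1 of 8. Over all genes tested, 1.81% were called lower. *Xist* had 2 to 5 counts in each WT library whereas *mEC1*dup/dup replicates 1 to 5 had 12812, 19040, 18165, 2096 and 0, and embryonic globins made up 18.4% to 23.3% of globin counts in WT and 32.6% to 35.6% in *mEC1*dup/dup. In replicate 5, the *mEC1*dup/dup embryo with 0 *Xist* counts, 4 of the 8 tested genes were above all WT embryos (18% of all genes tested). They were *Six2*, *Eya1*, *Eya2* and *Eya4*, while *Six4*, *Dach1*, *Sall1* and *Sall3* were not. In bulk tissue, fewer cells of a type and less RNA per cell cannot be told apart, and the part of cell composition, sex and globin share in these results was not tested beyond the fits given here.

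All 7 inner ear epithelium markers were detected and tested. Their summed level was 255, 213, 272, 252 and 258 CPM in WT and 56.5, 273, 269, 448 and 286 CPM in *mEC1*dup/dup. *Oc90*, an otoconial protein, made up most of it, with means of 195 CPM in WT and 202 CPM in *mEC1*dup/dup. In the summed level *mEC1*dup/dup replicate 1 was the lowest and replicate 4 the highest, though *Otoa* was lowest in WT replicate 2, and edgeR called none of the markers. Cartilage markers were also lowest in replicate 1 (2148 CPM summed, against 4640 to 6368 in the other *mEC1*dup/dup and 4872 to 8009 in WT embryos).

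After removal of the genotype means, Pearson's r with the inner ear marker level over the 10 libraries was 0.973 for *Eya1*, 0.943 for *Six2*, 0.886 for *Eya4*, 0.881 for *Sall1*, 0.763 for *Eya2* and *Dach1*, 0.743 for *Sall3* and 0.699 for *Six4*. Without *mEC1*dup/dup replicate 1, r was 0.806 for *Eya1*, 0.708 for *Dach1*, 0.589 for *Sall1*, 0.464 for *Six2*, 0.397 for *Six4*, 0.246 for *Eya4*, 0.244 for *Sall3* and -0.198 for *Eya2*. Leaving out this library lowered r most for *Eya2* and *Eya4* and least for *Dach1* and *Eya1*. Other markers were as like some of the genes. The cartilage markers had r = 0.948 with *Six2* (0.793 without replicate 1) and 0.854 with *Six4* (0.779), against 0.867 (0.37) with *Eya1*. The glia markers had 0.878 with *Sall1* (0.731) and 0.794 with *Sall3* (0.573), and the muscle markers had -0.869 with *Six4* (-0.857). These values share the libraries and their scaling and are descriptions only. With the marker level as a covariate, *Eya1* (log2 fold change 0.24, SE 0.045, edgeR adjusted p = 0.0134) and *Eya4* (0.27, SE 0.05, adjusted p = 0.0134) were called higher, 2 of the 8 against 1.1% of all genes tested. *Six2* had 0.23 (SE 0.061, adjusted p = 0.0561) in that fit. The covariate was added after seeing the data, and replicate 1 lay far below the other libraries on it. The share of genes called in that fit is therefore a description and not a test of the genotype. With the covariate and without replicate 1 together, none of the 8 was called, and 0.0241% of all genes were called higher. The log2 fold changes in that fit were 0.29 for *Six2* (SE 0.079), 0.23 for *Eya1* (SE 0.061), 0.4 for *Eya2* (SE 0.13) and 0.3 for *Eya4* (SE 0.066), and 0.0052 for *Dach1*. *Six4* had 0.16 (SE 0.1), *Sall1* 0.36 (SE 0.23) and *Sall3* 0.26 (SE 0.54). With the covariate and all libraries *Sall3* had 0.24 (SE 0.41).

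**Figure D4:**
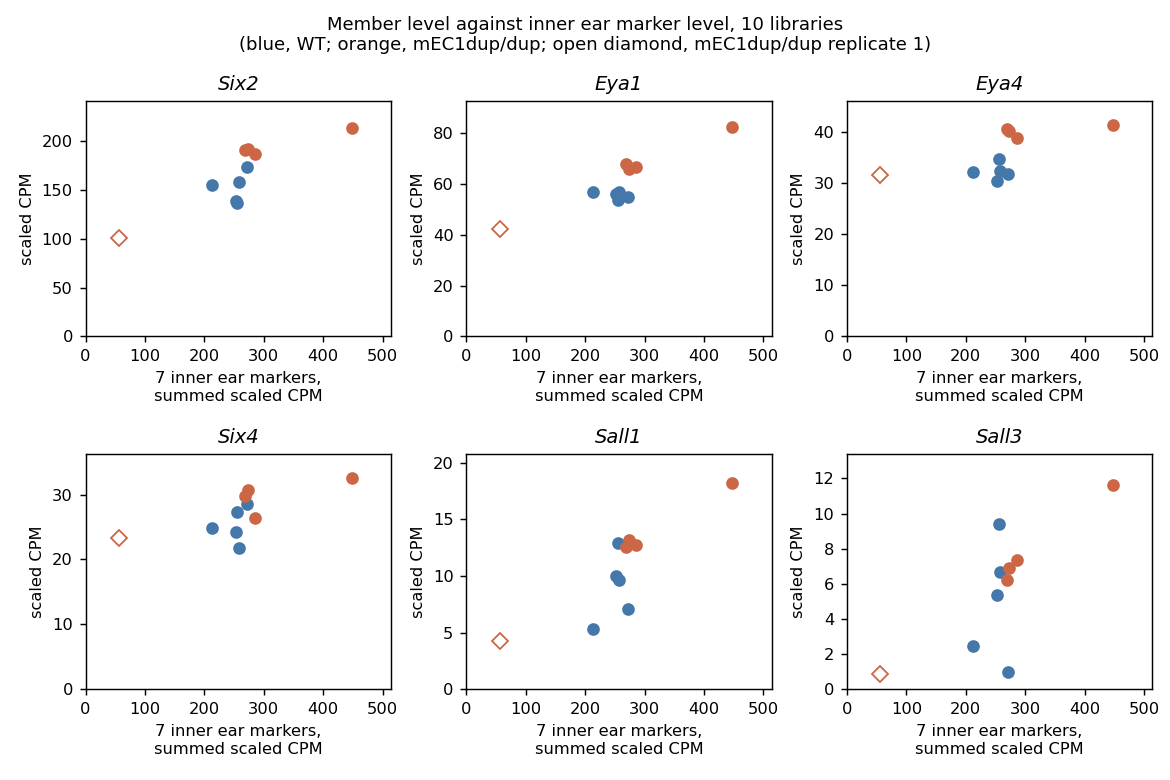
TMM-scaled CPM of 6 of the genes (vertical axes) against the summed CPM of the 7 inner ear markers (horizontal axes) in the 10 libraries, WT in blue, *mEC1*dup/dup in orange and *mEC1*dup/dup replicate 1 as an open diamond. Replicate 1 lies at 56.5 CPM of the markers and replicate 4 at 448 CPM, and the other 8 libraries lie between 213 and 286 CPM.

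The genes whose pattern was most like each of the 8 were found by the same measure, r over the 10 libraries with genotype means removed. For *Six2* they were *Gcnt1* (0.987), *Chadl* (0.982) and *Hmx3* (0.98), and for *Eya1* they were *Rflna* (0.979), *Oc90* (0.975) and *Zic2* (0.972). *Sall1* was most like *Otol1* (0.977), *Fam107a* (0.976) and *Nkx6-1* (0.966), and *Sall3* most like *Tectb* (0.976), *Wnk2* (0.973) and *Shc4* (0.97). *Otol1* and *Tectb* encode proteins of the otoconial and tectorial membranes of the inner ear, and both kept an r above 0.9 without replicate 1 (0.929 and 0.956). Among the genes just named the same held for *Gcnt1*, *Fam107a*, *Nkx6-1*, *Wnk2* and *Shc4*. *Chadl* (0.852), *Hmx3* (0.863), *Rflna* (0.86), *Oc90* (0.824) and *Zic2* (0.876) fell below 0.9. *Hmx3* and *Oc90* are also among the inner ear markers. The closest to *Eya4* were *Myo15b* and *Ano7* (both 0.965) and *Eva1c* (0.944), and those to *Eya2* were *Psenen* (0.955), *Gmds* (0.953) and *Camp* (0.95). *Reno1* stood near both *Six4* (0.925) and *Dach1* (0.92), with *Slc7a1* (0.917) and *Igdcc3* (0.915; not among the closest 3 with a prior count of 0.5) next for *Six4*, and *Fastkd5* (0.923) and *Tsr2* (0.921) for *Dach1*. Within the set, *Six2* and *Eya1* had r = 0.932 (0.504 without replicate 1), *Sall1* and *Sall3* 0.909 (0.797) and *Six4* and *Dach1* 0.899 (0.83). By contrast *Six4* and *Eya2* had 0.16, and -0.863 without replicate 1.

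Of 4 tested relatives in the same families, 1 was called higher and 0 lower (0.834% and 1.81% of all genes tested). *Sall2* had 104, 103, 102, 101 and 106 CPM in WT and 111, 130, 119, 141 and 125 CPM in *mEC1*dup/dup. All 5 *mEC1*dup/dup embryos, replicate 1 included, lay above all WT embryos, which held for 2.33% of all genes tested. Its log2 fold change was 0.28 (SE 0.054, edgeR adjusted p = 0.0176). The call was lost without *mEC1*dup/dup replicate 2 (0.26, edgeR adjusted p = 0.0554) and with the inner ear covariate without replicate 1 (0.25, adjusted p = 0.101). With *Xist* (0.31, adjusted p = 0.347) or the globin share (0.4, adjusted p = 0.898) as a covariate it was lost too. Over all genes, 2 were called higher and 1 lower with *Xist*, and 0 with globin. These covariates largely went with the genotype, so their fits do not single out *Sall2*. The other 3 had positive log2 fold changes from 0.03 (*Dach2*) to 0.16 (*Six5*) and were not called. Without WT replicate 4, its lowest library, *Six5* had 0.093.

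Among 18 tested genes of ear, arch and craniofacial patterning, 1 was called higher and 0 lower (0.834% and 1.81% of all genes tested). It was *Hmx1*, the gene that mEC1 serves, with 21.7, 29.1, 26.5, 29.0 and 26.6 CPM in WT and 77.5, 70.4, 63.3, 66.7 and 52.8 CPM in *mEC1*dup/dup (log2 fold change 1.31, SE 0.1, edgeR adjusted p = 0.000127). Replicate 1 had the highest *Hmx1* level of all libraries and the lowest *Six2*, *Eya1*, *Eya2*, *Dach1*, *Sall1* and *Sall3* levels. It was also lowest in the summed cartilage (2148 CPM) and inner ear (56.5 CPM) markers. Replicate 4, the highest library for *Six2*, *Eya1*, *Dach1*, *Sall1* and *Sall3*, had 66.7 CPM of *Hmx1*. A link between *Hmx1* and these genes was not tested. The 18 had a median of 0.13 and the range ran from -0.22 to 1.31. Among 11 muscle progenitor and myoblast regulators, in whose control Six-Eya complexes take part, 1 was called lower and 0 higher (1.81% and 0.834% of all genes tested). Their median was -0.12. The gene called lower was *Myf6* (3.84 ± 0.827 CPM in WT and 1.33 ± 0.464 in *mEC1*dup/dup, log2 fold change -1.52, SE 0.24, edgeR adjusted p = 0.00804). With the globin share as a covariate neither *Hmx1* (0.34, edgeR adjusted p = 0.921) nor *Myf6* (-1.58, adjusted p = 0.898) was called. Globin share did not overlap between the genotypes, and that fit called 0 of all genes tested. The *Myf6* call was also lost with *Xist* as a covariate (-1.19, edgeR adjusted p = 0.388) and with the inner ear covariate without replicate 1 (-1.67, adjusted p = 0.0943). Over all genes the *Xist* fit called 2 higher and 1 lower.

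Of the tested protein-coding neighbours and overlapping genes, *Tox3*, 1201438 bases from *Sall1*, was called higher (log2 fold change 0.3, edgeR adjusted p = 0.0324), and no other of those described here was called. Over all genes tested, 0.834% were called higher. *Six3*, 54935 bases from *Six2*, had 11 reads in all 10 libraries together. *Gm14261*, which overlaps exons of *Sall4* on the other strand, had 0 reads.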

How the data were processed

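Raw counts per gene were deposited without normalization for 5 WT and 5 *mEC1*dup/dup pinnae. The authors made them with fastp for trimming, STAR for alignment of the paired-end reads to GRCm39 and featureCounts for counting. The annotation release and the handling of strand and of reads with several matches are not given in the sources used here. The labels name a NEBNext Ultra kit and the paper a TruSeq kit. The study's reporting summary describes the replicates as independent embryos, siblings from separate litters. On that description p-values measure the spread between embryos. *mEC1*dup/dup replicate 4 had 2096 *Xist* counts, against 0 in replicate 5 and at least 12812 in the other *mEC1*dup/dup libraries. Whether the library of replicate 4 held RNA of a single embryo was not tested.

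Members and lists were chosen with earlier results of these data known. Symbols, lengths and gene starts came from GENCODE release 39, which matched 49355 of 53465 identifiers, and upstream sequences were read from the GRCm39 genome. Counts were filtered with filterByExpr by genotype (16426 genes kept), scaled by TMM and fitted with edgeR 4.0.16 (glmQLFit, glmQLFTest, genotype as the only term) in R 4.3.3. Calls needed p of 0.05 or less after Benjamini-Hochberg adjustment and a mean log2 CPM of 1 or more. The biological coefficient of variation was 0.113. CPM used TMM-scaled library sizes, correlations used log2 CPM with a prior count of 2, and reads carry no molecular identifiers. Replicates of one genotype differed by more than sampling noise (chi-square divided by its degrees of freedom, 2.56 to 18.2).

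Named genes were the 9 members, the called genes of 3 lists (other family members, ear network, myogenic regulators), the 3 genes most like each tested member, annotated neighbours, and *Xist* and the globins. One gene of the first list is not reported here. The inner ear markers *Oc90*, *Otog*, *Tecta*, *Otoa*, *Hmx2*, *Hmx3* and *Pax2* formed one of 10 marker lists. Alternatives were DESeq2 1.42.0 size factors or Wald test, upper quartile and total count scaling, limma-voom (limma 3.58.1) with and without quality weights, no filter or at least 10 counts in every library, no threshold on log2 CPM, an adjusted p of at most 0.1, the replicate number as a block, *Xist* or embryonic globin share as a covariate, and each library left out. The inner ear marker covariate was added after seeing the data. On simulated counts for the same 16426 genes and 5 libraries per genotype, the fit called 73% of 100 genes with a log2 fold change of 0.5 and 96% of 100 with 1, with 8 unchanged genes called. The changed genes were drawn at random among those above a floor on counts. Figures were drawn with matplotlib 3.10.9.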

Additional observations from a re-analysis of the deposited data

Results flagged for a closer look

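Single libraries far from the other 4 of their genotype were looked for in 42 groups of 5 libraries, and 5 were found (gap to the nearest library above 0.71 of the group's range). Chance alone gives about 1 in 20 groups. *mEC1*dup/dup replicate 1 stood apart in *Six2*, at 100.8 CPM with the others at 187 to 213, and in *Eya4*, at 31.66 CPM with the others at 38.9 to 41.4. It also stood apart in the summed epithelium markers, at 879.5 CPM with the others at 671 to 711 CPM, so it was low in the former and high in the latter. WT replicate 4 stood apart in *Sall4*, at 0.9971 CPM, which is 18 reads, and in *Six5*, at 88.57 CPM with the others at 109 to 114.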

How the results depend on the processing

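Results for *Six2*, *Six4*, *Eya1*, *Eya2*, *Eya4*, *Sall1* and *Sall3* kept a positive log2 fold change in all 23 alternative fits, but its size moved with *Xist* or globin as a covariate, and neither gave a call. With *Xist* it was 0.33 for *Six2*, 0.099 for *Six4*, 0.32 for *Eya1*, 0.53 for *Eya2*, 0.27 for *Eya4*, 0.63 for *Sall1* and 0.73 for *Sall3*, and with globin 0.36, 0.69, 0.29, 0.13, 0.52, 1.34 and 1.67, with standard errors of 0.32 (*Eya4*) to 2.27 (*Sall3*) for globin. That of *Dach1* turned negative with *Xist* as a covariate (-0.01234) and without *mEC1*dup/dup replicate 4 (-0.0027, with 0.1439 as the highest value when single libraries were left out). *Dach2* turned negative with *Xist* (-0.059), with globin (-0.62) and with single libraries left out (-0.084 to 0.15 over the 10 fits). Globin share did not overlap between the genotypes, and *Xist* was high in *mEC1*dup/dup libraries only. These fits can therefore hardly separate either covariate from the genotype. The cause was not tested.

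No setting called any of the 8 tested genes lower. Those called higher numbered 0 with all libraries, 1 with DESeq2's Wald test, with limma-voom quality weights and at an adjusted p of at most 0.1, 2 with the inner ear marker covariate, and 0 to 3 with single libraries left out, the 3 being *Six2*, *Eya1* and *Eya4* without *mEC1*dup/dup replicate 1. Of the other family genes, 1 was called with all libraries, 0 with *Xist* or globin as a covariate, 2 at an adjusted p of at most 0.1, and 0 to 1 with single libraries left out. Of the ear network genes, 1 was called with all libraries, 0 with the globin covariate, 2 with DESeq2's Wald test, with no filter, with the replicate block, with the inner ear covariate and at an adjusted p of at most 0.1, 3 with quality weights, and 1 to 2 with single libraries left out (2 without WT replicate 4 or *mEC1*dup/dup replicate 4). *Osr1* was the added gene in these fits, except *Jag1* without WT replicate 4 and both with quality weights. The myogenic call of *Myf6* was lost (0 called) with *Xist* or globin as a covariate. Over all genes, 2 were called higher and 1 lower with *Xist*, and 0 with globin, against 137 and 298.

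Replicate numbers are shared by the genotypes, and no source says that they mark a litter or batch. Deviations of same-numbered libraries correlated at -0.056 to 0.345 (mean 0.162, other pairs -0.0403), and 4 of 5 pairs exceeded 0.1, while 4 of the 10 libraries correlated best with their own number. A pairing was taken as shown only if all 5 did, so the block was kept as an alternative. With the replicate block the log2 fold changes were 0.25 for *Eya4* (edgeR adjusted p = 0.115), 0.18 for *Six2* (0.428) and 0.2 for *Eya1* (0.313). Over all genes the block called 200 higher and 488 lower, and single libraries left out gave 34 to 179 higher and 120 to 476 lower.

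Read numbers were low for *Sall4*, with at most 18 reads, and in single libraries for *Sall3*, with as few as 15. *Sall3* also varied between embryos, with a coefficient of variation of 67.3% in WT and 58.3% in *mEC1*dup/dup. The part of depth in its large standard error was not tested. In the simulation 73% of log2 fold changes of 0.5 were recovered, in genes drawn at random above a floor on counts. That share is therefore not the share for these 8 genes, whose standard errors ran from 0.072 (*Eya4*) to 0.56 (*Sall3*). All 8 fitted differences were smaller than 0.5.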
